A study of Mus musculus with 474 samples.

Results

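The genes described here copy the genome and supply its building blocks. The list held 40 genes of DNA replication and nucleotide synthesis, chosen by name, out of 55450 genes in the count tables, and all 40 were found by symbol. They were measured in single daughters of mouse haematopoietic stem cells (HSCs) by Smart-seq2, which reverse-transcribes whole mRNAs of a cell picked into its own well. The cells came from the bone marrow of wild-type male C57BL/6JRj mice aged 12 to 19 weeks, had divided in culture under time-lapse imaging, and were picked with a micromanipulator. The labels name no treatment and a single genotype, so all libraries formed 1 group. The authors' metadata named each cell's sister and marked it as having received more lysosomes (high) or fewer (low), and how that mark was set is not stated. Divisions with a high and a low daughter both sequenced came from 9 culture experiments, and a further 68 cells had no such sister. The experiment was the replicate, and whether experiments used separate mice is not stated, so the spread between them may be partly technical.

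Replication is prepared before it starts. The origin recognition complex, Cdc6 and Cdt1 load the Mcm2 to Mcm7 helicase onto DNA, geminin blocks a repeated loading, and Mcm10, Cdc45 and the GINS complex switch the helicase on. Polymerases then copy both strands, held by the ring-shaped PCNA clamp, while ribonucleotide reductase and thymidylate synthase provide deoxynucleotides. Most of these genes are transcribed under E2F factors as a cell passes from G1 into S phase. HSCs are mostly out of cycle in the marrow and enter it when cultured with growth factors.

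The members' promoters were searched for E2F letters. RefSeq windows of 250 bases before to 50 after a transcript start (build GRCm38.p6) were given for 32 of the 40 members, which had 36 promoters. E2F letters (TTTGGCGC, TTTCGCGC, TTTCCCGC, TTTGCCGC, TTTGGCGG or TTTCCCGG, on either strand) occurred in 15 of the 36, that is 41.7%, against 3.98% of all 32851 promoters in the table. The letters CCAAT, on either strand, were in 50% against 37.4%. The letters TTTGAA or TTCGAA, of the element that mitotic genes often carry, were in 13.9% against 19.2%. A match is a description of letters and no evidence that a factor binds. The stretch from 160 bases before to 30 after the start is shown for 4 members, with the E2F letters in capitals. Mcm6 was detected in every cell, Mcm5 and Clspn hold matches at other distances, and Chaf1b is shown as a member with no match in its window.
Mcm6 (chr1:128359676-128359865, minus strand): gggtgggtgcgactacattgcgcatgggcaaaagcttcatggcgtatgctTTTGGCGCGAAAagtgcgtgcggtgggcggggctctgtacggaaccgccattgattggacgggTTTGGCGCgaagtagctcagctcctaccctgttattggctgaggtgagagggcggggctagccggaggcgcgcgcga
Mcm5 (chr8:75109349-75109538, plus strand): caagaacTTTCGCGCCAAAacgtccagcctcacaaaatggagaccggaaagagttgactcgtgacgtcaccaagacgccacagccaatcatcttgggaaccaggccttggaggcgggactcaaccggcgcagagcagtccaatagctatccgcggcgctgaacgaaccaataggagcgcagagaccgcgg
Clspn (chr4:126556820-126557009, plus strand): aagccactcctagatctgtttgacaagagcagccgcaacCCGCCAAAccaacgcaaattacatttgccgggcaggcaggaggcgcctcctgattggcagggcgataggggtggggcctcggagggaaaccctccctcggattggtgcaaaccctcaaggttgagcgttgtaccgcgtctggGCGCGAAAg
Chaf1b (chr16:93883741-93883930, plus strand): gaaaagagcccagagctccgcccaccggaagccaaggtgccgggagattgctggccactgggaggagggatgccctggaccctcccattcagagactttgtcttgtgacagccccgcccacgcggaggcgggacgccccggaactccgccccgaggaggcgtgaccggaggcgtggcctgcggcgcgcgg

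Libraries held 76735 to 2444858 counts on genes, with a median of 846198, and 5538 to 12066 detected genes. The reads carry no molecular identifiers, so counts are not counts of molecules, and the intervals given below come from the spread over divisions or over experiments. Sequencing run 4 held experiments 69, 74, 75, 76 and 77, with 12, 27, 33, 38 and 26 divisions. Run 5 held experiments 60, 68, 72 and 73, with 20, 17, 11 and 19 divisions. Each experiment was on 1 plate except experiment 69, so plate and experiment mostly cannot be told apart. The typical (median) HSC marker, of 8, was detected in 94.6% of cells, and the least detected in 27.6%. The typical erythroid, myeloid and lymphoid marker, of 6 each, was detected in 5.67%, 4.56% and 7.14%. The typical megakaryocyte marker, of 6, was detected in 56%, with a range of 1.48% to 98.3% (Itgb3). For macrophages (4 markers), mast cells (3) and stroma and endothelium (4) the medians were 14.8%, 43.8% and 1.60%. Single markers of these lists went against the lower medians, with Tfrc (erythroid) detected in 93.3% of cells, Prtn3 (myeloid) in 73.9% and Cd79b (lymphoid) in 68.5%. Cd68 (macrophage) was detected in 56.7%, Gata2 (mast cell) in 99.3% and Pecam1 (stroma and endothelium) in 93.1%. Irf8 (myeloid) and Cd3e (lymphoid) were listed at 0 in all cells. The part of other cell types in the values below was not tested.

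Most replication genes were read in most daughters. Of the 40 members, 37 had counts, and 23 of these were detected in at least 90% of the cells of these divisions. Cdt1 (the loading factor that geminin binds), Gins2 (a GINS subunit) and Tk1 (thymidine kinase of the salvage route) were listed at 0 in every library. Genes in common use outside the list were at 0 too, among them Wee1 and Prc1, so these zeros are not read as absence of the transcript. The 37 measured members all passed the filter on low counts and the detection minimum of 20% of cells, so no member was lost there. A cell held counts for a median of 35.5 of the 37, with a lowest value of 13. After each cell was thinned to 75000 counts, which all of these cells allowed, the median was 33.

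**Figure D1:**
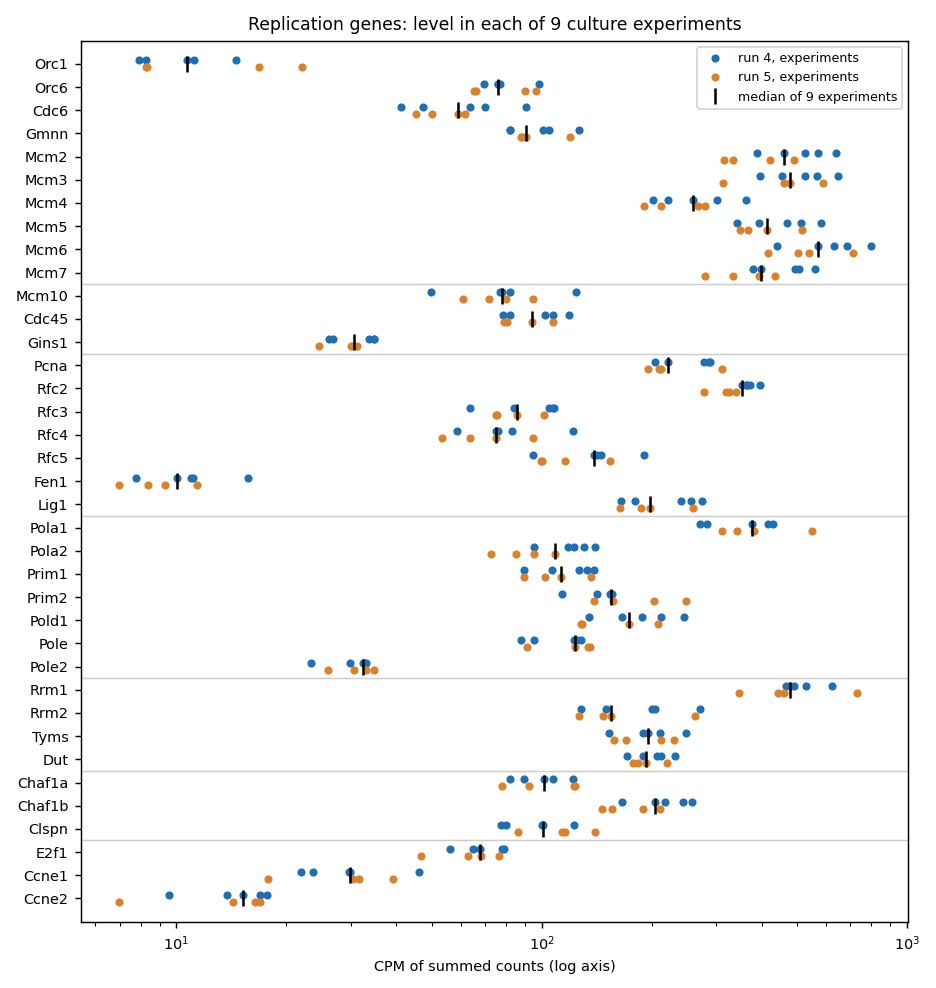
Level of the 37 measured replication genes, grouped by role, as CPM (counts relative to the library total on genes, on a log axis) of counts summed over the daughters of each of 9 experiments. Points are experiments coloured by sequencing run and the bar is their median. The highest experiment exceeded the lowest by 1.35 to 2.79 times, and 24 of 37 members were highest in experiment 75. The share of all genes highest in that experiment is not given here.

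On a scale per exonic length, 4 of the 6 helicase genes had the highest levels of the list. Per exonic length (the median over cells of counts per kilobase of exon, on the scale of TPM), Mcm3 stood at 415.8, Mcm6 at 382.1, Mcm5 at 347.6, Mcm7 at 298.9, Mcm4 at 210.2 and Mcm2 at 197.5. Gmnn, the gene of geminin, stood at 203.8 on the same scale. The genes of the loading machinery were lower, with Orc6 at 89.4, Cdc6 at 19.6 and Orc1, the largest subunit of the origin recognition complex, at 4.47. Mcm6 had a count in 100% of cells, against 64.8% for Orc1. The order depends on the scale. In CPM averaged over experiments, without regard to length, Rrm1 (507.9) lay between Mcm6 (588.8) and Mcm3 (492.7).

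Helicase activators were read at lower levels than the helicase. On the per-length scale Cdc45 stood at 75.3, Gins1 at 51 and Mcm10 at 27.5. Mcm10 was listed at 0 in both daughters of 32 divisions and Cdc45 in those of 24. For each of these genes 36 more divisions had a count in only 1 daughter.

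Among clamp and lagging-strand genes, Pcna led with a per-length level of 292.2, followed by the clamp loader genes Rfc2 at 167.3 and Rfc4 at 148.8 and by Lig1, which joins Okazaki fragments, at 141.1. Fen1, the flap nuclease of the same step, stood at 11.04. Of the 2422 exonic bases of Fen1, 2039 overlap other genes, mainly an antisense one, and nothing in the sources used here says that strand was used in counting, so its level is uncertain. In all, 15 of the 40 members share exonic bases with another gene, Chaf1a with 4648 of 8854. Reads of Pcna and Tyms could also be split with their named pseudogenes.

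Per exonic length, the polymerase genes all lay below the helicase genes. In CPM averaged over experiments this did not hold, with Pola1 at 373.97 and Mcm4 at 255.6. Pola1, the catalytic subunit of the priming polymerase, stood at 120.3 per length, Pold1 of the lagging-strand polymerase at 108.1, Prim1 and Prim2 of primase at 89.8 and 70.5, and Pole of the leading-strand polymerase at 27.6. In nucleotide supply, Dut, which removes dUTP, stood at 253.7, Rrm2 and Rrm1, the subunits of ribonucleotide reductase, at 156.3 and 144.7, and Tyms at 94.97. In the remaining roles the chromatin assembly gene Chaf1b stood at 131.7, the checkpoint mediator gene Clspn at 35.3, E2f1 at 49.9, and the cyclin E genes Ccne1 and Ccne2 at 9.70 and 5.36. Ccne1 was the most often missing of all measured members, with a count in 59.1% of cells, followed by Orc1 and by Ccne2 with 66.7%.

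Sisters resembled each other in every measured replication gene. Likeness was measured as the intraclass correlation, the share of a gene's variance that lies between divisions, of log2(CPM + 1) after centring on experiment and plate. It passed an F test over divisions for 37 of 37 members, against 26.4% of all 11699 genes tested (Benjamini-Hochberg adjusted p under 0.05). The members' median was 0.507 against 0.0858 for all genes tested, and values ran from 0.180 for Chaf1b to 0.696 for Rrm2. These p-values treat divisions, not cultures, as the unit. Over experiments, the correlation was above 0 in each of the 9 for 31 of the 37 members. The share of all genes for which this held is not given here.

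**Figure D2:**
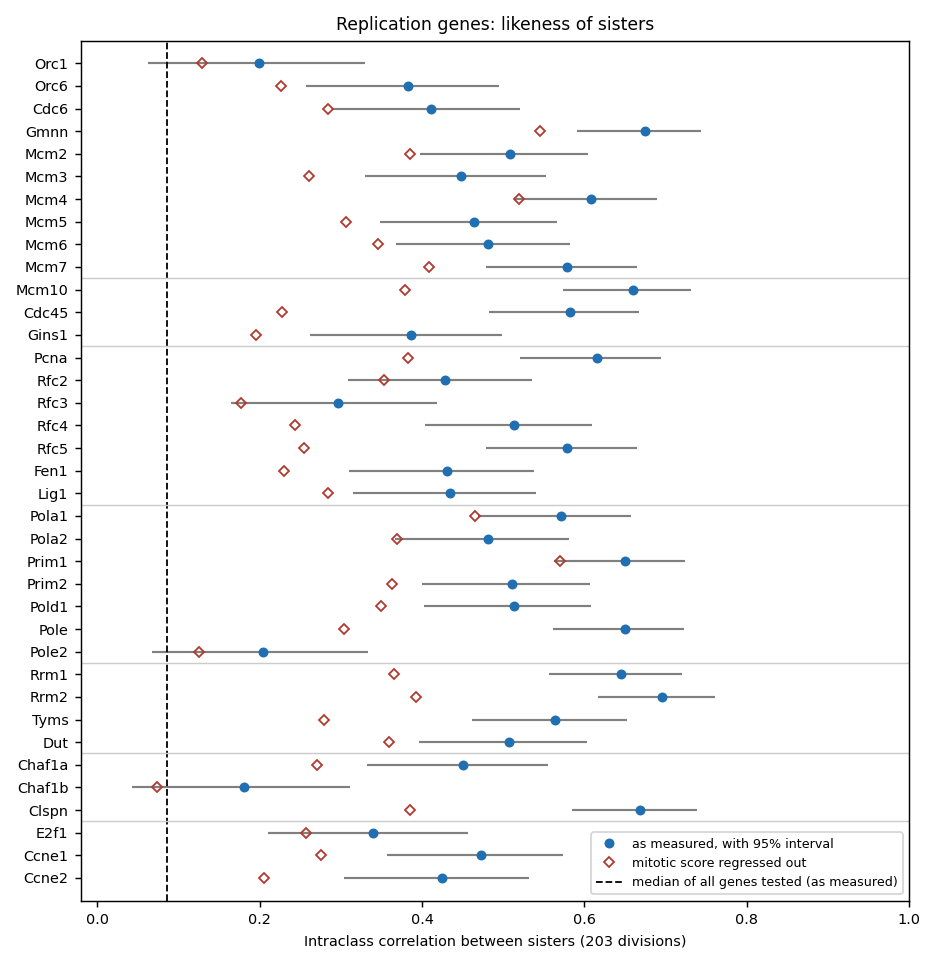
Intraclass correlation between sisters (no unit) for 37 replication genes grouped by role, over all divisions, with 95% intervals (lines) and with the mitotic score and its square regressed out (open diamonds). The dashed line is the median of all genes tested, 0.0858. Every filled point lies to its right, and every diamond lies left of its filled point.

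Rrm2 (ENSMUSG00000020649, GRCm38 chromosome 12, 24708241 to 24714146), the regulated subunit of ribonucleotide reductase, was the most alike between sisters. Its level over experiments was 126.7 CPM at the lowest (experiment 60), 155.2 at the median and 271.2 at the highest (experiment 75). Over single divisions the spread was far wider, from a mean log2(CPM + 1) of 1.51 at the 10th percentile to 8.65 at the 90th, with a median of 7.02. Both daughters had a count in 81.8% of divisions, neither in 5.91% and only 1 of them in 12.3%. The intraclass correlation was 0.696 (95% interval 0.617 to 0.762; F test over divisions, adjusted p = 1.21e-28).

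Gmnn (chromosome 13, 24751845 to 24761923), the loading inhibitor, ranged from 81.7 to 126.6 CPM over experiments with a median of 90.3. Both daughters had a count in 88.7% of divisions, and its intraclass correlation was 0.674 (0.591 to 0.744). Clspn, which passes the signal of stalled forks to the checkpoint kinase, ranged from 77.3 CPM in experiment 77 to 140.2 in experiment 60 (median 100.7), with an intraclass correlation of 0.669 (0.584 to 0.739). Mcm10 ranged from 49.7 CPM in experiment 77 to 123.9 in experiment 75 (median 77.9), with 0.660 (0.574 to 0.732). These 4 intervals overlap, so no order among the most alike genes is established.

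At the other end stood Chaf1b, Orc1 and Pole2. Chaf1b (chromosome 16, 93883901 to 93906115), the middle subunit of the assembly factor that places histones behind the fork, was read in 99.3% of cells at 146.01 to 258.7 CPM over experiments (median 204.4). Little of its variance lay between divisions, with an intraclass correlation of 0.180 (0.042 to 0.312; adjusted p = 0.0247). Orc1 (chromosome 4, 108579423 to 108614833) was read in 64.8% of cells at 7.89 to 22.001 CPM (median 10.7) and reached 0.199 (0.062 to 0.330; adjusted p = 0.0129). Pole2, the accessory subunit of the leading-strand polymerase, was at 23.3 to 34.8 CPM (median 32.3) and reached 0.204 (0.067 to 0.334; adjusted p = 0.0108). Orc1 and Pole2 were among the low members in level, whereas Chaf1b was well detected, with an SD between divisions of 0.48 and within divisions of 1.03 on the log2 scale. For Rrm2 the SDs were 2.38 and 1.57. Other members of low level were more alike between sisters than Orc1 and Pole2. Among them, with mean CPM over experiments, were Fen1 (10.2 CPM, 0.430), Ccne2 (14.2 CPM, 0.425) and Ccne1 (30.1 CPM, 0.472).

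**Figure D3:**
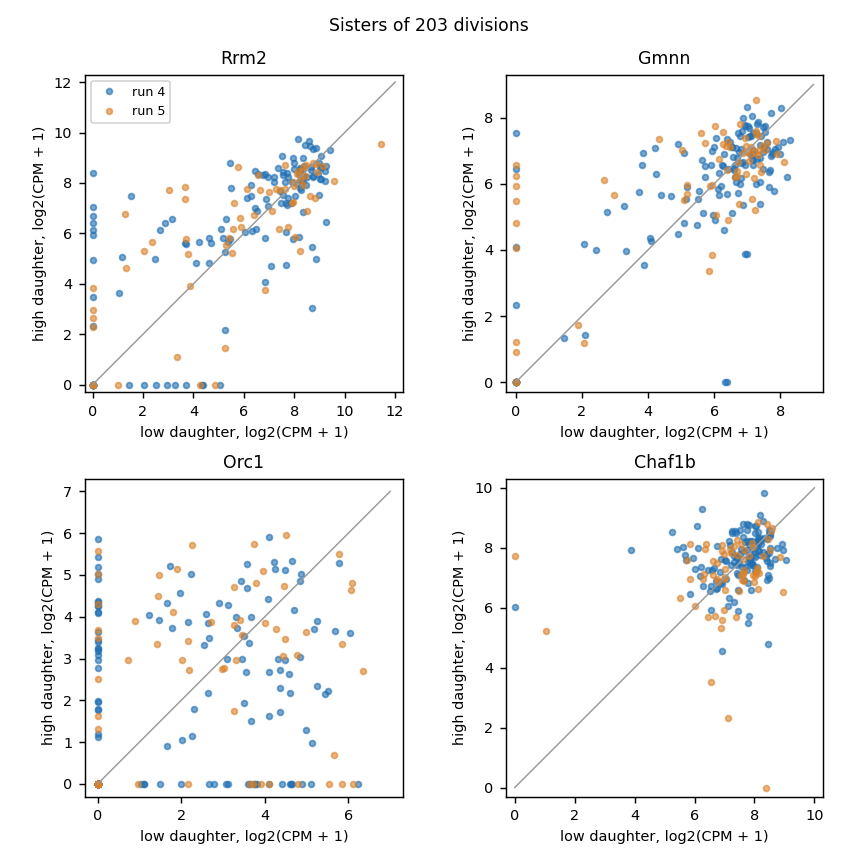
Level in the low daughter (x axis) and in the high daughter (y axis) of every division, as log2(CPM + 1), for the member with the highest likeness (Rrm2), Gmnn, and the members with the lowest (Orc1, Chaf1b). Points are divisions coloured by sequencing run and the line marks equality. Rrm2 and Gmnn follow the line over a wide range, Orc1 scatters with many values of 0 in 1 daughter, and Chaf1b forms a compact cloud.

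By role, likeness was highest for nucleotide supply, with a median of 0.605 over 4 measured members (0.507 to 0.696), and for helicase activation, with 0.582 over 3 (0.386 to 0.660). The polymerase genes had a median of 0.513 over 7, from Pole2 to Prim1 at 0.651. Helicase loading and origin genes had 0.473 over 10, and clamp, loader and lagging-strand genes 0.434 over 7, from Rfc3 at 0.297 to Pcna at 0.615. The G1/S switch genes E2f1, Ccne1 and Ccne2 had 0.339, 0.472 and 0.425. Differences between roles were not tested, and each role holds few genes.

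The wider pathway showed the same pattern less uniformly. Of 81 other replication genes, 77 were tested and 59 passed, with a median of 0.356. The histone chaperone gene Asf1b reached 0.700 and Mybl2, a cell cycle transcription factor gene, 0.604. At the low end were the origin gene Orc5 at 0.00027, the p53-responsive reductase gene Rrm2b at -0.016 and E2f6 at -0.062. Of the 24 mitotic genes tested, 24 passed, with a median of 0.733 (0.572 for Kif23 to 0.834 for Plk1).

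Part of the likeness moved with the mitotic genes. A mitotic score was the mean log2(CPM + 1) of the 24 measured mitotic genes in a cell. With this score and its square regressed out, 34 of 37 members still passed, against 17.8% of all genes tested, and the members' median fell to 0.304 (all genes tested, 0.0694). The 3 that no longer passed were Chaf1b at 0.074, Pole2 at 0.125 and Orc1 at 0.129. Prim1 at 0.570, Gmnn at 0.545, Mcm4 at 0.519 and Pola1 at 0.465 kept the highest values, while Cdc45 went from 0.582 to 0.228. Of the other replication genes 39 passed after this step, and of the mitotic genes, which themselves make up the score, 9.

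The members rose and fell together from division to division. Over the 666 pairs of members, Pearson's r of division means had a median of 0.650, from 0.232 (Orc1 with Ccne1) to 0.887 (Cdc45 with Clspn). For the differences between sisters the median was 0.222, with 657 of 666 pairs above 0 and the highest at 0.624 (Mcm2 with Mcm6). All pairs share libraries and depth, so these values describe these divisions and are given without a p. A replication score, the mean log2(CPM + 1) of the 37 members, ran over divisions from 2.01 to 7.82, with a median of 6.52 and 10th and 90th percentiles of 3.72 and 7.51. Its intraclass correlation was 0.778 (0.717 to 0.828), and the mitotic score's was 0.879.

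Replication and mitotic genes traced an arc rather than a line. A straight line in the mitotic score accounted for 33.9% of the variance of the replication score, and a parabola for 56.4%, with its top at a mitotic score of 5.49 in a range of 0.29 to 8.42. The 20 divisions with the highest replication scores had mitotic scores between 4.74 and 7.28. The 20 with the highest mitotic scores had replication scores between 5.53 and 6.66, below the top, and the 20 with the lowest replication scores had mitotic scores between 0.29 and 2.74.

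**Figure D4:**
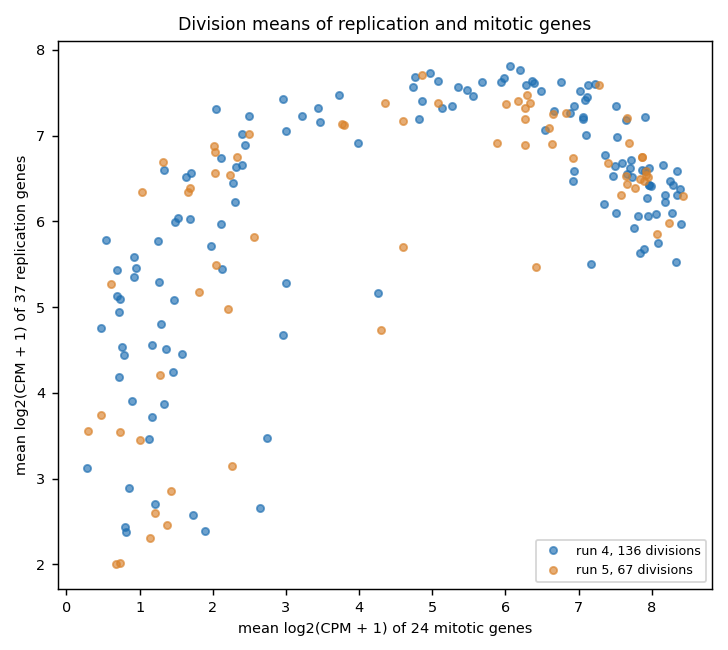
Mean log2(CPM + 1) of the 24 mitotic genes (x axis) and of the 37 replication genes (y axis) for each division, both daughters averaged, coloured by sequencing run. The replication score climbs steeply at low mitotic scores, is highest at mitotic scores between about 4.74 and 7.28, and comes down again at the right edge. Divisions of both runs lie along the whole arc.

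Fitted to each gene alone, the parabola had its top inside the range for all 37 members. The share of all genes with such a top is not given here, so it is not read as a trait of the members. Chaf1b (4.55), Ccne2 (4.69), Mcm6 (4.75), Ccne1 (4.76), E2f1 (4.76) and Cdc6 (4.77) had their tops at the lowest mitotic scores. Rfc4 (6.40), Orc1 (6.39), Mcm10 (6.29), Rfc5 (6.28), Rrm1 (6.26), Gmnn (6.25) and Rrm2 (6.16) had them at the highest. Genes of helicase loading and origins were found at both ends. The fit accounted for 12.8% of the variance for Orc1 and 70.9% for Cdc45, with a median of 33.96%, so single tops are rough, and no interval was computed for them. In linear terms, r with the mitotic score after centring on experiment and plate was 0.15 to 0.18 for the 3 G1/S switch genes, 0.03 for Chaf1b, 0.72 for Rrm2 and 0.76 for Mcm10. The replication score also moved with the number of detected genes (r = 0.545) and little with the log2 total count (r = 0.176), and the part of detected genes in the pattern was not tested.

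Outside the list, among the genes most like the members' mean over divisions, after centring on experiment and plate, were Uhrf1 (r = 0.919), a reader of newly copied DNA, Ncapg2 (0.889), a condensin subunit gene, and Rpa2 (0.889), of the single-strand binding complex. Lower values among the most alike were those of the fork protein gene Wdhd1 (0.881), the maintenance methyltransferase gene Dnmt1 (0.881), Pkmyt1 (0.866), Dtl (0.864), Tipin (0.863) and Exo1 (0.857). Of those named, Ncapg2, Pkmyt1 and Dtl were not among the 81 other replication genes. At the opposite end stood Tcp11l2 (-0.682), the histone gene Hist1h2bc (-0.628) and the autophagy receptor gene Sqstm1 (-0.622). Ahnak (-0.533), Neat1 (-0.529), Ypel3 (-0.524), Rarg (-0.520), Laptm5 (-0.508), a lysosomal membrane protein gene, Kdm5b (-0.508) and Rsrp1 (-0.493) followed.

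High and low daughters did not differ detectably in any replication gene. For this, edgeR's quasi-likelihood test was run on the summed counts of all high and all low daughters of each experiment, with the experiment as block. None of 37 members passed, against 0% of 15854 genes tested, none had an unadjusted p under 0.05, against 4.15%, and DESeq2 also gave 0 by both counts. The members' log2 differences, high minus low, ran from -0.20 for Orc1 to 0.24 for Fen1, with a median of 0.04 against -0.00076 for all genes tested. The 95% intervals of all 37 excluded a change of 1 on the log2 scale in either direction, and 33 lay within 0.5. The value was above 0 for 28 of 37 members, against 49.8% of all genes. Members move together, so such a count does not hold 37 independent observations.

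The 4 members with the smallest unadjusted p show the size of the spread. Rfc3, a clamp loader gene, was at 69.7, 85.2 and 130.01 CPM (lowest, median and highest experiment) in high daughters and at 57.8, 83.2 and 110.6 in low daughters. The groups overlap widely, and high daughters were higher in 6 of 9 experiments. Its difference was 0.19 ± 0.10 (SE; edgeR, p = 0.0693, adjusted p = 0.999). Rfc4, of the same complex, was at 61.4, 73.1 and 125.4 CPM in high and 44.3, 74.7 and 118.1 in low daughters, with a difference of 0.15 ± 0.10 and the same count of experiments. Here too the groups overlap. Rfc2, of the same complex too, was at 281.4, 340.6 and 402.2 CPM in high and 263.8, 356.04 and 390.97 in low daughters, a difference of -0.08 ± 0.05, with 3 of 9 experiments higher in high daughters. Mcm4, a helicase gene, was at 176.2, 274.5 and 370.5 CPM in high and 183.7, 232.97 and 356.8 in low daughters, a difference of 0.10 ± 0.06, with 7 of 9 experiments higher. For each of these genes the ranges of high and low daughters overlap over most of their length. These ranges hold the spread between experiments, which the fit with the experiment as block takes out. Their overlap therefore does not measure the difference within experiments.

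Among the members most alike between sisters, Rrm2 differed by 0.08 ± 0.07 between high and low, Mcm10 by 0.14 ± 0.12, Clspn by 0.04 ± 0.08 and Gmnn by 0.00 ± 0.08. Among the least alike, Chaf1b differed by 0.05 ± 0.08, Pole2 by 0.14 ± 0.13 and Orc1 by -0.20 ± 0.25, the widest interval of the list. Unadjusted p-values of these genes ran from 0.256 for Mcm10 to 0.979 for Gmnn (edgeR), and none passed after adjustment.

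Taken per division instead of per summed count, the same cells leaned towards the high daughters. Here each division gave the difference of log2(CPM + 1) between its daughters, tested with limma, on a scale where a cell with no count pulls as strongly as a cell with many. The mean was above 0 for 36 of 37 members, all but Rfc2, against 58.9% of 11699 genes tested, with a median of 0.21 against 0.03. Unadjusted p-values over divisions were under 0.05 for 12 of 37, against 5.77%, and 0 passed after adjustment, against 0%. Here too the unit of the p-values is the division, not the culture. Members move together, so these counts do not hold 37 independent observations. The lowest unadjusted p-values were those of Prim2 at 0.52 ± 0.15 (p = 0.000718; adjusted p = 0.4932) and Mcm4 at 0.33 ± 0.11. With 1 mean difference per experiment (limma), Prim2 had p = 0.0319 and Mcm4 p = 0.00315 (adjusted p = 0.939 and 0.925). On summed counts Prim2 stood at 0.01 ± 0.10. The share of cells with a count was larger in high daughters for 29 members, smaller for 3 and equal for 5. The largest gap was that of Ccne2, with 71.4% of high and 62.1% of low daughters. The same count over all genes is not given here, so it is not read as a trait of the members. High daughters held a mean of 66.1 and a median of 10 more detected genes than their sisters.

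**Figure D5:**
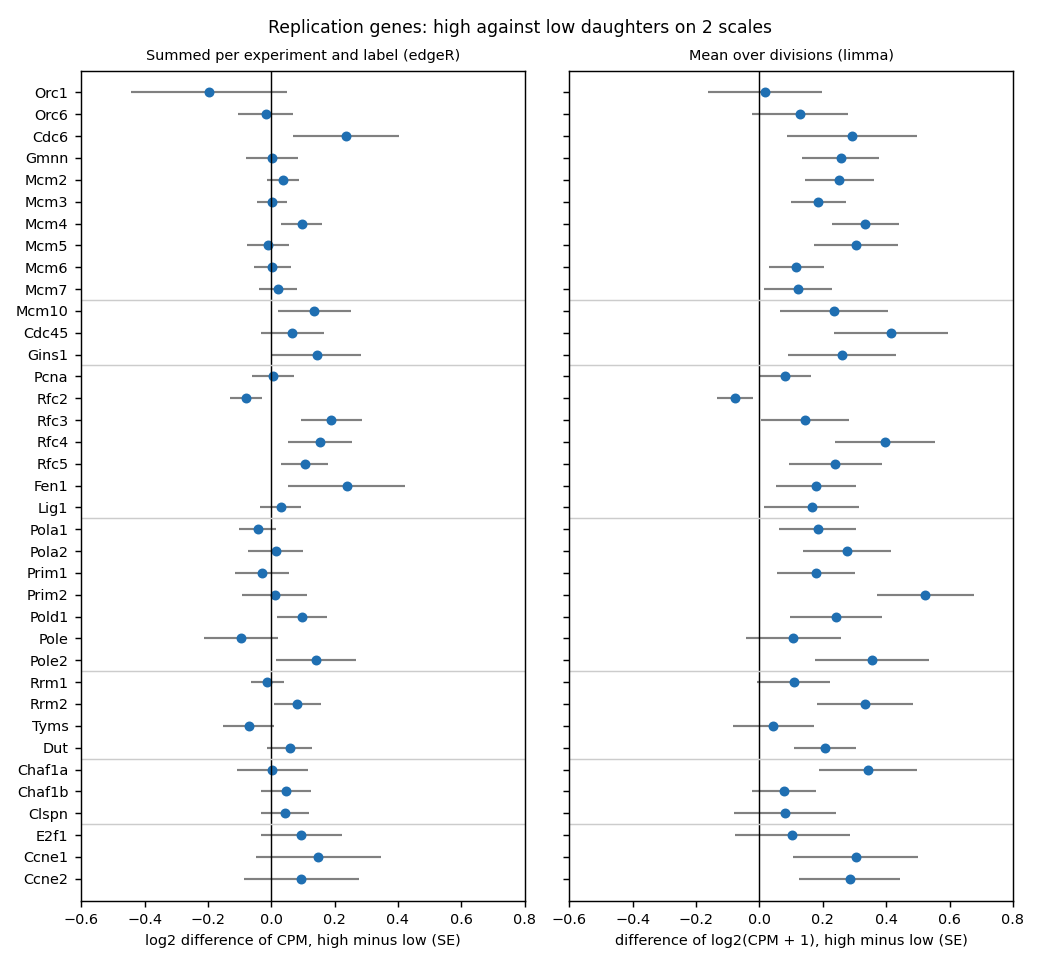
High minus low daughters for 37 replication genes grouped by role. The left panel shows the log2 difference of summed counts (edgeR, 9 experiments) and the right panel the mean difference of log2(CPM + 1) over divisions (limma), both with SE. On the left 28 points lie above 0 and on the right 36, and none passes after adjustment on either scale.

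The lean over divisions kept its direction in the other fits to all of these differences, with fewer low p-values. At equal depth and equal number of detected genes, 35 of 37 means were above 0 (51.7% of all genes) and 5 had an unadjusted p under 0.05 (4.8%), with a median of 0.18. With 1 mean difference per experiment, 33 were above 0 (59.1%) and 9 had an unadjusted p under 0.05 (5.07%). On log2(CPM + 10), where cells with no count pull less, 35 were above 0 and 6 had an unadjusted p under 0.05. The median there was 0.13, against 0.01 for all genes, and the shares of all genes on that scale are not given here. The mean of the score's difference was well above its median. The replication score was higher in the high daughter in 56.7% of divisions, with a median difference of 0.04 and a mean of 0.21, and differences ran from -3.86 to 4.85. The score difference moved with the differences in detected genes (r = 0.322) and in the mitotic score (r = 0.393) over divisions. Values at equal depth and detected genes are those given above, and the part of the mitotic score in the lean was not tested.

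By experiment, the mean score difference ran from -0.20 in experiment 69 to 0.52 in experiment 77, with experiment 72 at 0.01 and the other 6 between 0.10 and 0.34. High daughters of experiment 69 had a mean difference of -359.5 detected genes from their sisters, and those of experiment 68 one of 662. Without experiment 77, 33 members were above 0 over divisions, 3 had an unadjusted p under 0.05, and on summed counts the median went from 0.04 to 0.0021. When the 68 cells without a sequenced sister were added to the sums, 16 of 37 members were higher in high daughters, with a median of -0.01. The share of all genes in that fit is not given here. Thinned to 75000 counts, high daughters held counts for 0.87 more members on average than their sisters, against 0.83 unthinned.

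The 2 sequencing runs gave opposite leans on summed counts. In run 4 alone 31 of 37 members were higher in high daughters, with a median of 0.08, and in run 5 alone 13, with a median of -0.05. The shares of all genes higher in high daughters in single runs or experiments are not given here. The test of the difference between runs passed for 0 of 37 members, against 0% of all genes (edgeR), and had an unadjusted p under 0.05 for 3, against 4.24%. These were Pold1 and Tyms, with a high-minus-low difference smaller in run 5 by 0.35 and 0.33, and Rfc5, with one larger by 0.29. In experiments 68 and 72 of run 5, 8 and 9 members were higher in high daughters, and in experiments 60 and 73 of the same run 30 and 23. The opposite leans of the runs are therefore not established as a difference between them.

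Levels also varied between cultures. The highest experiment exceeded the lowest by 1.35 to 2.79 times, with a median of 1.90. A limma F test across experiments on division means passed for 9 of 37 members, against 32.5% of 11699 genes: Mcm2, Mcm3, Mcm6, Mcm7, Fen1, Rfc5, Rrm1, Rrm2 and Chaf1b. Mcm6 was lowest in experiment 72 at 416.2 CPM, stood at 569.8 at the median and was highest in experiment 75 at 796.7 (adjusted p = 0.0423). Fen1 ran from 6.95 in experiment 68 to 10.02 at the median and 15.7 in experiment 75 (adjusted p = 0.0098). Experiment 75 was the highest for 24 of the 37 members. Members move together, and the share of all genes highest in this experiment is not given here. It had the highest mean replication score, 6.55 ± 1.15 (SD over 33 divisions), and the next to highest mean mitotic score. Without experiment 75, 1 member passed.

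The lowest mean replication scores were 5.46 ± 1.51 in experiment 77 (26 divisions) and 5.57 ± 1.76 in experiment 68 (17 divisions). Within each experiment divisions ran over most of the whole range, from 2.66 to 7.76 in experiment 75 and from 2.38 to 7.59 in experiment 77, so cultures overlap almost fully. With depth and detected genes as covariates 31 members passed, against 36.9% of all genes, so whether the members' share called lies below or above that of all genes turns round with these covariates. Depth, detected genes and plate differ between experiments. Depth and detected genes entered that fit together, and the part of each taken singly, or of plate, was not tested.

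Between runs no member differed after adjustment. Run 5 against run 4 gave 0 of 37 past the threshold (0% of 14788 genes; edgeR on sums per experiment), and 4 with an unadjusted p under 0.05, against 9.14%. Pola2, Mcm2 and Mcm7 were lower in run 5, by 0.39, 0.37 and 0.34 on the log2 scale, and Prim2 was higher by 0.41. Pola2, of the priming polymerase, averaged 121.2 CPM over the 5 experiments of run 4 and 90.4 over the 4 of run 5. In all 9 of 37 members were higher in run 5, against 50.6% of all genes. Run 4 and run 5 differ in experiments, plates and depth together, and these cannot be told apart.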

How the data were processed

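The authors deposited count tables, that is raw read counts per gene and library, which per the submitters' processing notes were made with featureCounts from Subread 1.5.0 and with SAMtools. Which aligner and build were used is not given in these sources. All 55450 gene identifiers were found in GENCODE mouse release 21, which gave symbols and GRCm38 positions. The authors' deposited metadata tables hold labels of each cell (unit: other), such as experiment, run, plate, sister and lysosome label. The 171 count columns that match no listed sample were set aside.

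Of the divisions, the 203 in which 1 daughter was high and the other low entered the analysis. All cells met minimums of 50000 counts and 1000 detected genes. Counts summed per experiment and label were tested in R 4.3.3 with edgeR 4.0.16 (TMM factors, filterByExpr, and the experiment as block), and the SE is the log2 difference divided by the root of F. Values per cell were log2(CPM + 1), with a pseudocount of 1, over genes detected in at least 20% of cells, tested with limma 3.58.1 or, for intraclass correlations, an F test over divisions. P-values were adjusted by Benjamini-Hochberg over all genes tested. Alternatives were DESeq2 1.42.0, other factors and filters, a pseudocount of 10, ranks, covariates, single runs and leaving out each experiment. The further settings of the test over divisions, and the mitotic covariate between experiments, were chosen after seeing the data. Scripts (Python 3.11.15, numpy 2.4.6, scipy 1.17.1) were tested on simulated data.

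The members and the gene lists were chosen with earlier results of these data known. Values per experiment are given for the 4 members with the highest and the 3 with the lowest intraclass correlation and the 4 with the smallest p between high and low daughters. Mcm6, Fen1, Prim2 and Pola2 were singled out after their values were seen. Some genes that met these rules or belong to the other lists are not reported here.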

Additional observations from a re-analysis of the deposited data

Results flagged for a closer look

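In 76 groups of 9 experiment values, each member's level and difference and the scores, the most extreme value was compared with the rest, and about 1 in 20 groups stands out by chance. In 2 of them an experiment stood apart, both in experiment 68, where high daughters had on average 662 more detected genes than their sisters, and the part of detected genes was not tested. The log2 difference of Pcna, high minus low, was -0.48 there and between -0.10 and 0.23 in the other experiments. That of Chaf1b was -0.50 there and between -0.08 and 0.32 elsewhere. No level of a member stood apart in this way.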

How the results depend on the processing

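No paired analysis by replicate number was possible because the labels give none; the experiment is a block in the main fit. No member passed between high and low daughters, between runs or in the difference of inheritance between runs under any alternative that was run. Members with an unadjusted p under 0.05 between high and low daughters numbered 12 with limma over divisions, 3 in run 4 and 1 in run 5, and 0 to 2 when each experiment was left out, the 2 without experiment 68. Over divisions this count was 6 with a pseudocount of 10, 5 at equal depth and detected genes, and 3 to 12 when each experiment was left out. Members higher in high daughters numbered 16 with the cells without a sequenced sister added and 13 in run 5, where shares of all genes are not given. The members' median difference was 0.21 over divisions. Members that differed between experiments numbered 31 with depth and detected genes as covariates, 5 in run 4, 0 in run 5, and 1 (without experiment 75) to 9 when each experiment was left out. The median intraclass correlation was 0.407 after regression on depth and detected genes and 0.304 after regression on the mitotic score and its square, and 33 to 37 members passed under every alternative. Of 703 single-gene intraclass correlations under alternatives, 686 stayed past the threshold, 17 did not (Chaf1b 5, Orc1 5, Pole2 6 and Orc6 1), and 0 changed sign. Of the high-minus-low differences of the 11 named members under alternatives, 14 (7.95%) changed sign: with the cells without a sequenced sister added, Rrm2 -0.0017, Gmnn -0.057 and Clspn -0.0059; in run 5, Rrm2 -0.058, Clspn -0.026, Chaf1b -0.053 and Pole2 -0.018; in run 4, Gmnn -0.00047; over divisions, Orc1 0.016. When each experiment was left out, Gmnn ran from -0.047 to 0.051 and Clspn from -5.9e-05 to 0.076. The cause of these changes was not tested. Orc1 had the widest interval of the members and a count in 64.8% of cells; the part of depth in its precision was not tested.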
